A study of Mus musculus with 4 samples.

Results

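Chemokine receptors are G protein-coupled receptors that steer cells along gradients of small secreted ligands, and thymocytes change the set they carry as they mature. The 8 genes described here, Ccr4, Ccr6, Ccr7, Ccr9, Cxcr3, Cxcr4, Cxcr5 and Cxcr6, were taken by name from 22350 protein-coding genes, and every E2A peak was assigned to them whose midpoint lay in the gene body or within 100 kb of it. This gave 59 of the 17532 peaks called in L-DKO DP cells and 9 of the 1516 peaks called in L-DKO iNKT cells. Because Ccr9 and Cxcr6 are neighbours, 8 DP peaks and 1 iNKT peak lie in the windows of both and were counted once in these totals.

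L-DKO mice carry floxed Id2 and Id3 (Id2 f/f Id3 f/f) and LckCre, which removes both genes in cells of the T lineage from early thymocyte stages on. DP cells (CD1dTet- CD4+ CD8+) and iNKT cells (CD1dTet+ TCRβ+) were sorted from thymi of mice 3 to 5 weeks old, of C57BL/6 or mixed C57BL/6 and 129 background, and each sample pooled 3 to 4 mice. For each cell type there was 1 ChIP-Seq library made with the anti-E2A antibody V-18 and 1 input library. Both cell types lacked Id2 and Id3, so the data hold no Id-sufficient cells to compare them with. Each cell type had a single E2A library, which leaves no replicates to give an error, and no difference between DP and iNKT cells was tested. The lists give a position and a MACS score for each peak, 10 times the negative log10 of its p-value, without read counts, and how deeply either library was sequenced is not known from them. Peak number and score both depend on depth, so scores were ranked within a list and not compared as amounts between lists, and a locus without a peak is one where none was called.

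E2A is a basic helix-loop-helix transcription factor, an E protein, that binds E-boxes such as CAGGTG and CAGCTG. Id proteins pair with E proteins and keep them off DNA. Among the receptors, Cxcr4 (ligand Cxcl12) acts in early and cortical thymocytes, Ccr9 (ligand Ccl25) is a receptor of DP and developing T cells, and Ccr7 (ligands Ccl19 and Ccl21) and Ccr4 (ligands Ccl17 and Ccl22) draw selected cells into the medulla. Cxcr6 (ligand Cxcl16) and Cxcr3 (ligands Cxcl9 and Cxcl10) are known from iNKT and effector T cells, Ccr6 (ligand Ccl20) from cells that make interleukin-17, and Cxcr5 (ligand Cxcl13) from lymphocytes that enter B cell follicles.

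The sequences below are a selection, given because they hold the E-box nearest to the midpoint of a receptor gene's strongest DP peak or of an iNKT peak. Each is 106 bases of the plus strand of mm9 (NCBIM37), in lower case, and capitals mark every CAGGTG or CAGCTG. On the minus strand, CAGGTG reads CACCTG, while CAGCTG reads the same on both strands. The E-box chosen lies 2 bp from the midpoint in the strongest DP peak of Ccr9 and 384 bp from it in that of Ccr7. Several of the E-boxes chosen thus lie outside the 200 bp at the midpoint used below for motif counts. The strongest DP peak of Ccr6 and the second iNKT peak of Ccr4 are shown further on, with the other runs of repeated E-boxes. Those left out include the remaining iNKT peak of Ccr4, whose E-box lies close to an annotated exon.
Ccr9 and Cxcr6, strongest DP peak at chr9:123663632-123663737: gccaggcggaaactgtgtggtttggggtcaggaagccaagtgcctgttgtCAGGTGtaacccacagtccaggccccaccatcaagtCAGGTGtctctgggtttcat
Ccr9 and Cxcr6, iNKT peak at chr9:123665999-123666104: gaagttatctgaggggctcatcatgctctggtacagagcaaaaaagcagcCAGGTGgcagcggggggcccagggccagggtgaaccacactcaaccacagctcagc
Ccr4, strongest DP peak at chr9:114352670-114352775: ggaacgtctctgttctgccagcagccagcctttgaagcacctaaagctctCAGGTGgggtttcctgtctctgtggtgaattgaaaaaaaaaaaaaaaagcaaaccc
Ccr4, strongest iNKT peak at chr9:114361607-114361712: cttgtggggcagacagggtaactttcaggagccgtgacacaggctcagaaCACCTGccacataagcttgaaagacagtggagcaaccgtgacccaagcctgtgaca
Ccr7, strongest DP peak at chr11:98997354-98997459: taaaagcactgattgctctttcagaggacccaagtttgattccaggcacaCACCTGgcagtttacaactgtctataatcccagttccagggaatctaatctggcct
Ccr7, stronger iNKT peak at chr11:98972674-98972779: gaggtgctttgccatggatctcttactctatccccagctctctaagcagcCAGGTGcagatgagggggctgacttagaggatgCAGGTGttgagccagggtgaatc
Ccr7, weaker iNKT peak at chr11:98977258-98977363: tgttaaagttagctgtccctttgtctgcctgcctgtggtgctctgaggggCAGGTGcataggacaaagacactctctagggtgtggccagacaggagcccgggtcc
Cxcr4, DP and iNKT peaks over the gene at chr1:130487908-130488013: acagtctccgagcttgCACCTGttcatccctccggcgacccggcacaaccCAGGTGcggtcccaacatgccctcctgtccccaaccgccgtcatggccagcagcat
Cxcr5, upstream iNKT peak at chr9:44389591-44389696: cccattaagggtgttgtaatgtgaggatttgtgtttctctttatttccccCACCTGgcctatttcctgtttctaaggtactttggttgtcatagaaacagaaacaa
Cxcr3, strongest DP peak at chrX:98963106-98963211: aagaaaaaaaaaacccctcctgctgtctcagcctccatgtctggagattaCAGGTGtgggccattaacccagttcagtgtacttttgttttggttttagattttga

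E2A peaks were called around all 8 receptor genes in DP cells and around 6 of them in iNKT cells. Of all protein-coding genes, 65.1% had a DP peak within the same window and 16.9% had an iNKT peak. Ccr7 had 14 DP peaks and 2 iNKT peaks. Cxcr5 had 13 DP peaks and 2 iNKT peaks. Ccr4 and Ccr9 had 9 DP peaks each, with 3 iNKT peaks at Ccr4 and 1 at Ccr9. Cxcr4 and Cxcr6 had 8 DP peaks and 1 iNKT peak each. Ccr6 with 4 DP peaks and Cxcr3 with 2 were the receptor genes without an iNKT peak. The median was 8.5 DP peaks for a receptor gene and 2 for all protein-coding genes, a description of gene neighbourhoods that also differ in length and in their other genes. In this median the 8 DP peaks of Cxcr6 count for Ccr9 as well.

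**Figure D1:**
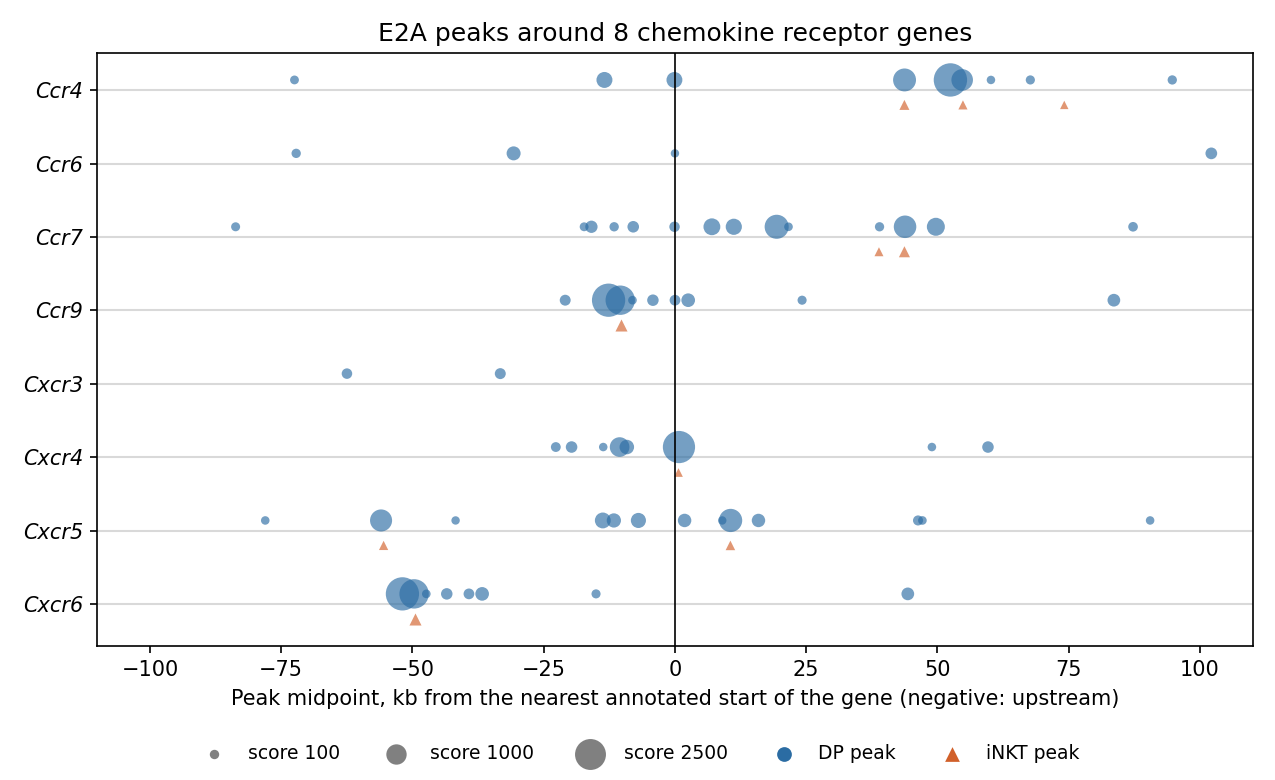
E2A peaks by distance of the peak midpoint from the nearest annotated start of each gene (horizontal axis, kb, negative upstream), with circles for DP peaks, triangles for iNKT peaks and marker area growing with the MACS score. The iNKT peaks at Ccr4, Ccr7 and Cxcr5 lie 10.6 to 74.1 kb from the start, while the 1 at Cxcr4 lies 0.626 kb inside the gene.

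By score, 4 of the 8 genes stood at a similar height among all genes. The highest DP score was 2934 for Ccr4, 2915 for Ccr9 and, from the same peak, Cxcr6, and 2727 for Cxcr4, which placed them above 95.6%, 95.5%, 95.5% and 95.0% of protein-coding genes. Ccr7 followed with 1458 and Cxcr5 with 1349.6, above 87.8% and 86.6% of genes. Ccr6 with 398 and Cxcr3 with 189 came last, above 67.2% and 55.7%. In iNKT cells the highest score was 257 at Ccr9 and Cxcr6, above 98.0% of genes, then 195 at Ccr7 (96.9%), 133 at Ccr4 (94.7%), 108 at Cxcr5 (93.1%) and 65.8 at Cxcr4 (88.5%). The order thus differed between the lists: Cxcr4 was close to the top in DP cells and last of those with a peak in iNKT cells. These shares count genes without a peak as lower, and 65.1% of genes had a DP peak and 16.9% an iNKT peak. Among genes with a peak, the median highest score was 402.37 in DP cells and 91.0 in iNKT cells. The highest DP scores of Ccr6 and Cxcr3 and the highest iNKT score of Cxcr4 were below these medians. Without replicates, neighbours in either order cannot be told apart.

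**Figure D2:**
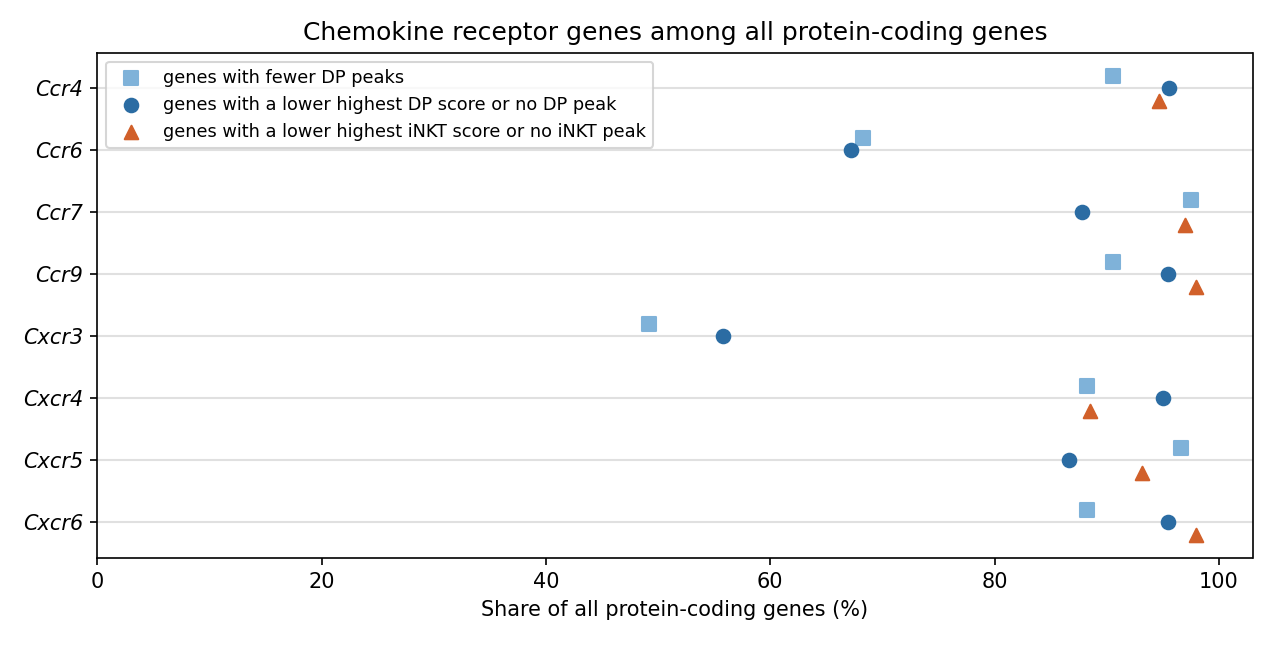
Share of all protein-coding genes (horizontal axis, %) that had fewer DP peaks (squares), a lower highest DP score (circles) or a lower highest iNKT score (triangles) than each receptor gene, counting genes without a peak as lower. Cxcr3 sits at 49.2% and 55.7% for the DP measures and Ccr6 at 68.2% and 67.2%, while the other 6 genes lie between 86.6% and 98.0% on every measure.

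The DP peaks that were also called in iNKT cells had high scores, with 1 exception. Of the 59 DP peaks, 8 (13.6%, 95% Wilson interval 7.03 to 24.5%) overlapped an iNKT peak by at least 1 bp, against 5.99% of all DP peaks. Of the 10 DP peaks with a score of 1000 or more, 7 (70%) overlapped an iNKT peak, and of the other 49 only 1 did. Over the whole DP list the shares were 31.9% of 1668 peaks and 3.27% of 15864 peaks. In the other direction, 8 of the 9 iNKT peaks (88.9%, 56.5 to 98.0%) overlapped a DP peak, against 69.3% of all iNKT peaks. These intervals cover counting error only. The receptor genes' DP peaks held more high scores than the list as a whole: 16.9% of them reached 1000 against 9.51% of all, and their median score was 224 against 141. An overlap has to be read beside the score, and the part of score in the share of overlap was not tested.

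**Figure D3:**
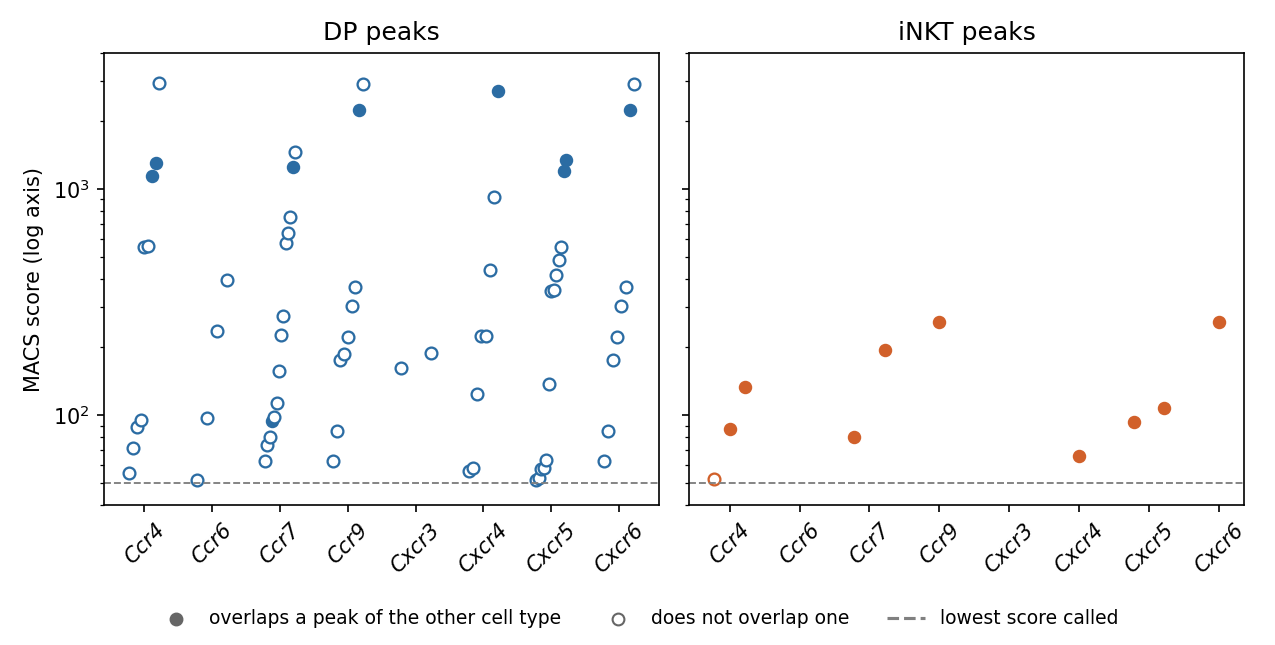
MACS scores of the DP peaks (left) and iNKT peaks (right) at each receptor gene on a log axis, filled where the peak overlaps one of the other cell type, with a dashed line at 50, the lowest score called. All filled DP points but 1, a Ccr7 peak of 93.9, lie above 1000, and the open points above 1000 are at Ccr4, Ccr7 and Ccr9 (the last drawn again at Cxcr6).

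Ccr9, the Ccl25 receptor of DP cells, had most of its DP peaks close together. Its gene record, ENSMUSG00000029530, spans chr9:123587557-123691089 on the plus strand because 1 annotated transcript starts far upstream of the other 3, whose starts cluster near chr9:123676329, and distances are given from the nearest start. Of the 9 DP peaks, 6 lay between 12.6 kb upstream and 2.52 kb downstream of the clustered starts. The strongest, chr9:123662902-123664462, had a score of 2915 (rank 325 of 17532) and lay 12.6 kb upstream, with 5 copies of CAGGTG. Only 228 bp separated it from the next, chr9:123664691-123667113, with a score of 2243 (rank 548) and 4 copies of CAGGTG. The lower-scoring member of this pair was the one found in iNKT cells. The iNKT peak, chr9:123665463-123666665, had a score of 257 (rank 144 of 1516), lay 10.3 kb upstream and fell wholly inside the DP peak, sharing 1203 bp. In DP cells the weaker neighbours scored 63.0 at 8.10 kb upstream, 221 at 4.2 kb upstream, 175 over the clustered starts and 371 at 2.52 kb downstream. None of these 4 overlapped an iNKT peak. A DP peak of 186 lay 20.9 kb upstream of the distant start, in an intron of Slc6a20a, which encodes an amino acid transporter.

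The 106 bases shown from the Ccr9 peak of both cell types held 1 CAGGTG, 2 copies of the Runx1 core ACCACA and 1 of the Gata3 core TTATCT, each searched on both strands. The bases from the stronger peak, called in DP cells alone, held 2 copies of CAGGTG and 1 of ACCACA. In the 200 bp at the midpoint, ACCACA occurred in 23.8% of all DP peaks and 25.3% of all iNKT peaks, and TTATCT in 8.87% and 13.6%. These shares are for at least 1 copy in a longer stretch, so they are not a background for the 106 bases.

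**Figure D4:**
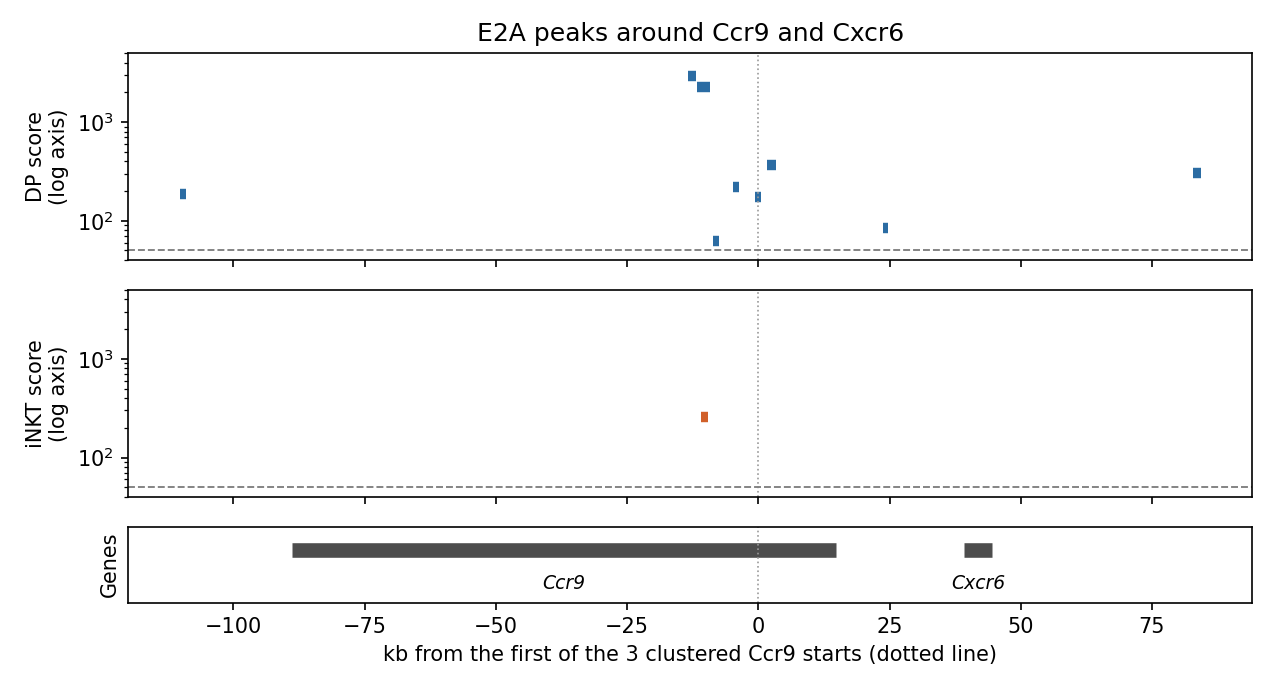
Positions of DP peaks (top, blue) and the iNKT peak (middle, orange) around Ccr9 and Cxcr6, in kb from the first of the clustered Ccr9 starts (dotted line), with the MACS score on a log axis, bar length the width of the peak and a dashed line at the lowest score called. The pair of DP peaks of 2915 and 2243 stands 12.6 and 10.4 kb upstream, with the iNKT peak of 257 inside the lower of them, and no peak lies over Cxcr6.

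Cxcr6, the Cxcl16 receptor, had no E2A peak in its gene body (chr9:123715595-123720872, plus strand) or within 10 kb in either cell type. All 8 of its DP peaks were also in the window of Ccr9. The nearest to its start, chr9:123700071-123701045, lay 15.0 kb upstream in an annotated UTR of Fyco1, scored 84.8 and was the only one for which the start of Cxcr6 was the nearest. The pair that led at Ccr9 lay 51.9 and 49.7 kb upstream of Cxcr6, and the iNKT peak 49.5 kb upstream. A DP peak of 303 lay 44.3 kb downstream, 0.841 kb from a start of Fyco1, a gene of vesicle transport. Peak positions alone do not assign these peaks to either receptor gene.

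Cxcr4, the Cxcl12 receptor, had the strongest peak over a start. The gene lies at chr1:130484776-130488870 on the minus strand, and no other protein-coding gene starts in its window, so all its peaks had Cxcr4 as the nearest start. The DP peak chr1:130486518-130489698 had a score of 2727 (rank 380), was 3181 bp wide and covered the start, with 3 copies of CAGGTG and 1 of CAGCTG. The iNKT peak chr1:130487220-130489262 lay wholly within it, covered the start as well, and had a score of 65.8 (rank 961). In rank, the DP peak was in the upper 2.17% of its list and the iNKT peak at 63.4% of its own. Upstream, 2 DP peaks 2 bp apart followed, with scores of 441 at 9.18 kb and 921 at 10.5 kb. Neither held CAGGTG, but they held 2 and 4 copies of CAGCTG. The other 5 DP peaks scored 56.5 to 225 and lay 13.7 to 22.7 kb upstream or 48.9 to 59.6 kb downstream. The peak of 56.5 was the only one of the 59 DP peaks without CAGGTG or CAGCTG.

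DP peaks covered an annotated start at 5 of the 8 genes, where 11.0% of protein-coding genes had one. Besides the 2727 at Cxcr4 these were 554 at Ccr4, 175 at Ccr9, 158 at Ccr7 and 51.85 at Ccr6. In iNKT cells the peak at Cxcr4 was the only one over a start, which 0.434% of protein-coding genes had. Cxcr3, Cxcr5 and Cxcr6 had no peak over a start in either list. Except at Cxcr4, the highest DP peak of each receptor gene lay 10.6 to 52.5 kb from its nearest start.

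In the 250 bases upstream of the 45975 annotated starts of protein-coding transcripts, CAGGTG was present at 17.3%, CAGCTG at 12.6% and either of them at 27.6%. Values are given here for 7 of the 8 receptor genes. No copy of either was found upstream of the annotated starts of Cxcr3, Cxcr4, Cxcr6 or Ccr7, of which Cxcr4 and Ccr7 had a DP peak over the start. Ccr9 had CAGGTG 85 bp upstream of the first clustered start, beneath the DP peak of 175, and Ccr4 had it 223 bp upstream of its outer start, beneath the DP peak of 554. The inner start of Ccr4, beneath the same peak, had neither E-box, nor did the outermost start of Ccr6, beneath the DP peak of 51.85. A Ccr6 transcript that starts inside the gene had CAGGTG 186 bp upstream, with no peak over that start. The 250 bases before the first clustered start of Ccr9 are given as a case of an E-box beneath a DP peak, read along the gene and with the E-box in capitals.
Ccr9 at chr9:123676079-123676328: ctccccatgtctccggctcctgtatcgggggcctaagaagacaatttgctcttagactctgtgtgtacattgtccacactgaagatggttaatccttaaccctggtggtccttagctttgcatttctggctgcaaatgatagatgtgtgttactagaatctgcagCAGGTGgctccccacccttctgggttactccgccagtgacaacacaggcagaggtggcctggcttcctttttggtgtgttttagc

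Ccr4, a receptor of cells entering the medulla, had its strong peaks on the far side of the gene. It lies at chr9:114399434-114405662 on the minus strand, and a DP peak of 554 (chr9:114405113-114406423, rank 3048) covered its start, with another of 561 at 13.4 kb upstream. The 3 peaks above 1000 lay 43.7 to 54.7 kb downstream, within introns of Glb1, which encodes lysosomal beta-galactosidase. Their nearest annotated start was that of Glb1, 29.9 to 40.8 kb away. The strongest DP peak of all 8 genes was among them, chr9:114351743-114353645 with a score of 2934 (rank 321), 52.5 kb downstream, and it overlapped no iNKT peak. The nearest iNKT peak ended 573 bp away. This iNKT peak, chr9:114349445-114351169, had a score of 86.6 (rank 682) and fell within the neighbouring DP peak chr9:114349367-114351541, which scored 1141 (rank 1417). The third of the group, DP peak chr9:114360323-114362538 with 1309.5 (rank 1195), shared 2216 bp with the iNKT peak chr9:114360308-114362607, which scored 133 (rank 375). At Ccr4 as at Ccr9, therefore, the highest DP peak was not called in iNKT cells while a weaker one beside it was.

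The remaining iNKT peak at Ccr4, chr9:114330341-114331675, was the only one of the 9 without an overlapping DP peak. Its score of 52.0 (rank 1409 of 1516) was close to the lowest called, it lay in an intron of Glb1 10.4 kb from a start of that gene, and the nearest DP peak, of 88.4, was 5321 bp away. The other 4 DP peaks of Ccr4 scored 55.3 to 95.0 and lay 60.2 to 94.7 kb downstream or 72.5 kb upstream, the last 4.65 kb from a start of Trim71.

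Ccr7, the Ccl19 and Ccl21 receptor, had the largest number of DP peaks within 100 kb, spread on both sides of chr11:99005510-99016391 (minus strand). The strongest, chr11:98995333-98998712, was a broad DP peak of 3380 bp with a score of 1458 (rank 1024), 19.4 kb downstream of the start, and it overlapped no iNKT peak. DP peaks of 579 at the 3′ end (11.2 kb from the start) and 641 in an intron (7.03 kb) led back to the 158 over the start. Upstream came 226 at 7.95 kb, 98.3 at 11.6 kb, 274 at 15.9 kb and 74.0 at 17.3 kb. With a window of 10 kb, Ccr7 had 5 DP peaks and Ccr9 had 7. The start of Ccr7 was the nearest for 9 of its 14 DP peaks. Both iNKT peaks lay beyond these, nearer to the start of Tns4, a gene of cell adhesion.

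The iNKT peak chr11:98972016-98973357, 43.7 kb downstream of the start of Ccr7, had a score of 195 (rank 209) and lay wholly within the DP peak chr11:98971697-98973444, which scored 1259 (rank 1246). All 3 copies of CAGGTG in the DP peak were inside it. The second, chr11:98977035-98978041, had a score of 80.1 (rank 751) and shared 807 bp with the DP peak chr11:98977019-98977841, which scored 93.9 (rank 11441). It was the only iNKT peak at these genes whose DP counterpart scored below 1000. Each peak of this second pair held 1 CAGGTG. A DP peak of 752 without an iNKT peak stood 49.7 kb downstream, and the last 3 DP peaks scored 63.0 to 113.

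Cxcr5, the Cxcl13 receptor, carried its strongest peak inside the gene. The gene lies at chr9:44319871-44334504 on the minus strand, and the DP peak chr9:44323048-44324774, in an intron 10.6 kb from the start, had a score of 1349.6 (rank 1141). The iNKT peak chr9:44323117-44324777, with a score of 108 (rank 498), covered nearly the same bases, with midpoints 36 bp apart. Nearby DP peaks scored 52.6 (9 kb from the start), 356 (1.83 kb from the start, also intronic), 354 (just beyond the 3′ end, at 15.9 kb) and 487 (6.97 kb upstream), and none was called in iNKT cells. Farther upstream DP peaks of 417 and 553 followed at 11.6 and 13.7 kb.

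A second pair at Cxcr5 lay 55.5 to 56.0 kb upstream, where the nearest start, 22.5 to 23.0 kb away, was that of Ddx6, which encodes an RNA helicase. Its DP peak, chr9:44389131-44391839, had a score of 1201 (rank 1323) and its iNKT peak, chr9:44388915-44391088, 93.0 (rank 608), with 1958 bp in common. The remaining 5 DP peaks scored 51.6 to 137 and lay 41.8 to 90.5 kb away.

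Cxcr3 and Ccr6, the genes without an iNKT peak, had 0 and 1 DP peaks within 10 kb. Cxcr6 and Ccr4, which had iNKT peaks in their windows, likewise had 0 and 1. Cxcr3 (chrX:98926874-98929608, minus strand) had no peak within 10 kb. Its DP peaks scored 189 (chrX:98962404-98963361, rank 7142) at 33.3 kb upstream and 162 (chrX:98991773-98992403, rank 7976) at 62.5 kb upstream, the latter in the gene 8030474K03Rik, 68 bp from a start of it. No peak had Cxcr3 as its nearest start. Ccr6 (chr17:8429077-8449992, plus strand) had a DP peak over its start, chr17:8428714-8429424, but at 51.85 (rank 17112 of 17532) this was among the weakest in the list. Its other DP peaks scored 96.8 at 72.2 kb upstream, 398 at 30.7 kb upstream, and 235 beyond the other end of the gene, near the limit of the window. The peak of 398, chr17:8397846-8398834 (rank 4096), lay outside annotated protein-coding genes, nearer to the start of Fgfr1op than to that of Ccr6.

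E-boxes were first counted in the 200 bp at each midpoint. CAGGTG was in 25 of 59 DP peaks (42.4%, Wilson interval 30.6 to 55.1%), against 43.9% of all DP peaks, and CAGCTG in 23.7% against 29.0%. In iNKT cells CAGGTG was in 3 of 9 (33.3%, 12.1 to 64.6%), against 52.8% of all iNKT peaks. CAGCTG was in 0 of 9 (Wilson interval 0 to 29.9%), against 30.5%, so that either E-box was in the same 3, against 65.2%. With 9 peaks these shares are a description. The lists give no summit, so the 200 bp at the midpoint may miss the summit, more so in wide peaks. In the whole peak, CAGGTG was in 84.7% of the DP peaks, against 79.0%, and in all 9 iNKT peaks, against 80.9%, and these peaks were wider, with a median of 1101 bp against 984 bp in DP and 1661 bp against 1039.5 bp in iNKT cells. TCAAAG, a core of Tcf7 and Lef1 sites, was in 15.3% of the DP peaks at the midpoint, against 17.4%, while ACCACA was in 23.7%, against 23.8%, and TTATCT in 5.08%, against 8.87%.

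Some of these peaks held long runs of E-boxes. The DP peak upstream of Ccr6, chr17:8397846-8398834, held 7 copies of CAGGTG and 14 of CAGCTG, 21 in all, and only 62 DP peaks (0.354%) held at least that many. The DP peak of 235 downstream of Ccr6, chr17:8539355-8540850 in an intron of Sft2d1, held 5 of CAGGTG and 54 of CAGCTG, 59 in all, and only 2 DP peaks of the list, itself included, had at least that many. Most of these boxes were evenly spaced, with 15 bp from one to the next in 51 cases. At Ccr4, the DP peak of 1141 and the iNKT peak of 86.6 within it held 15 copies of CAGGTG and 1 of CAGCTG, with 20 bp the most common spacing, and 0.713% of DP peaks and 2.84% of iNKT peaks had as many. By comparison the strongest DP peak, 201 bp from it, held 7.

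These runs are repeated DNA to different degrees. Of the 31-base words in the peak, 46.3% occurred more than once within it at Sft2d1, 15.6% upstream of Ccr6 and 1.12% at Ccr4. The authors kept reads with a single best position, and the part of repeated sequence in the scores of these peaks was not tested. The 150 bases of each run with the most E-boxes are given, again on the plus strand with E-boxes in capitals.
Ccr6 upstream cluster at chr17:8398200-8398349: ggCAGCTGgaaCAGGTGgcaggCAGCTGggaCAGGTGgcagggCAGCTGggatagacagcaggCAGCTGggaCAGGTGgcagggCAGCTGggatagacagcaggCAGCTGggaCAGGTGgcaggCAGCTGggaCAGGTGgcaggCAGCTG
Ccr6 window, intron of Sft2d1 at chr17:8539622-8539771: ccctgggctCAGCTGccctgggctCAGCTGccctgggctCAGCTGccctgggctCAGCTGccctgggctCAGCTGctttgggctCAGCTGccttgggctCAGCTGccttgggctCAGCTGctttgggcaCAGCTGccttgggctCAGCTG
Ccr4 downstream cluster at chr9:114350449-114350598: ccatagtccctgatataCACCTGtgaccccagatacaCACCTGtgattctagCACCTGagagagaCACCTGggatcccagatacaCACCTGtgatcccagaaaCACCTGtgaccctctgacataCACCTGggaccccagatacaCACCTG

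**Figure D5:**
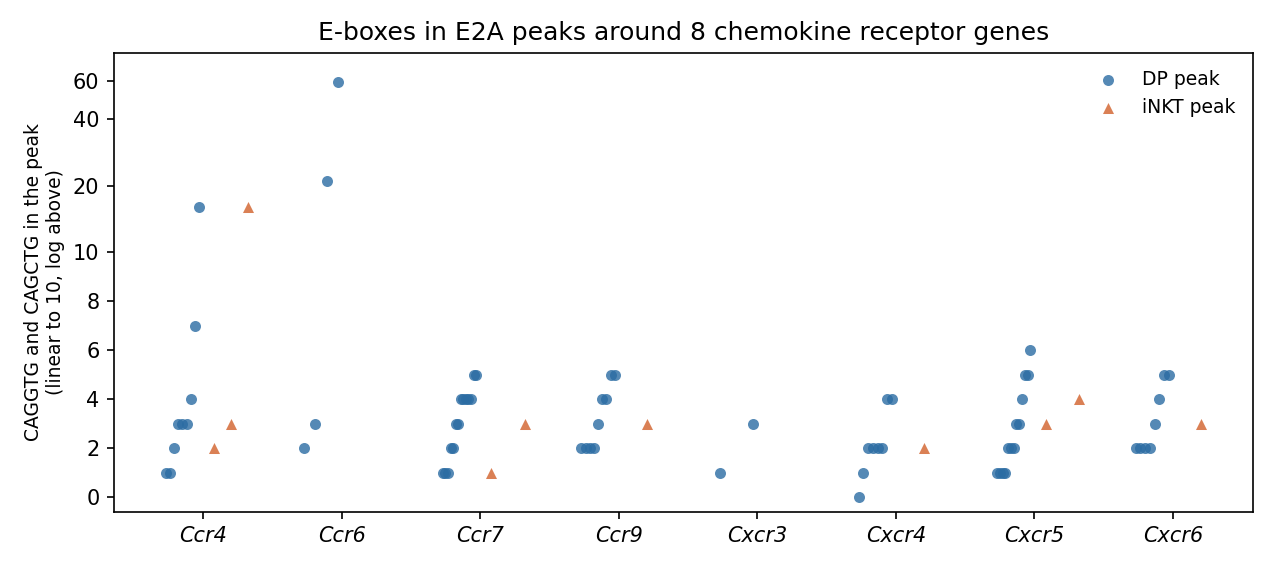
Number of CAGGTG and CAGCTG copies in each whole DP peak (circles) and iNKT peak (triangles) by receptor gene, on an axis that is linear to 10 and logarithmic above. The peaks with 59 and 21 copies at Ccr6 and with 16 at Ccr4 stand above the rest, which hold 0 to 7.

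The same window was searched around other chemokine receptor genes. Of 15 further receptor genes, 12 had a DP peak in their window and 3 an iNKT peak, where 65.1% and 16.9% of all protein-coding genes had one, and their median was 4 DP peaks, against 2 for all genes. Cx3cr1, the fractalkine receptor, had the most DP peaks of these genes, 10, with a highest score of 1933, and shared an iNKT peak of 63.4 with its neighbour Ccr8. Xcr1, next to Cxcr6, had 8 DP peaks, all of them among those of Ccr9 and Cxcr6, and so the highest score of the 15 genes, 2915. No peak was called around Ccr1, Cxcr7 or Darc. Several of these genes are neighbours that share windows, so they are not independent of each other or of Ccr9.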

How the data were processed

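E2A ChIP-Seq was analysed from L-DKO DP and iNKT cells, 1 E2A library each. The input libraries were not analysed here other than through the peak calls. By the methods and processing notes, reads were mapped by the authors to mm9 (Bowtie 1.1.2), those with more than a single best position were dropped, and peaks were called by MACS 1.4.2 with its defaults. Each deposited value is a MACS score, the negative log10 of a peak's p-value multiplied by 10, and the lowest score, 50, is a p-value of 1e-05.

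Genes, exons and starts came from the NCBIM37 annotation (GENCODE M1) and sequence from the NCBIM37 assembly, in which every peak fell within its chromosome. Peaks were assigned by midpoint, within 100 kb of the gene body, and distances run to the nearest start of a protein-coding transcript. Peaks of both lists sharing at least 1 bp overlap. Ranks are by score within a list. Shares have 95% Wilson intervals. All 8 genes were named; peaks were described singly if called in iNKT cells or overlapping one, if highest or nearest to a start in DP cells, or if within 10 kb of a gene, and the others by count and range. The genes, motifs and lists were chosen with earlier results of these data known. Alternatives were narrower and wider windows, a minimum score of 100, assignment by nearest start or by any overlap with the window, an overlap of 50%, other motif windows and, added after seeing the data, a shorter Ccr9. The 8 checks of the functions on simulated data passed. Python 3.11.15, numpy 2.4.6, scipy 1.17.1 and matplotlib 3.10.9 were used. Some items among the results are not reported here.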

Additional observations from a re-analysis of the deposited data

How the results depend on the processing

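Across 23 results, 140 values were recomputed under an alternative, 133 planned and 7 added after seeing the data, and 90 stayed within the limit set while 50 moved. The limit was 1.5 times for a count and the Wilson interval of the value given for a share, so the 90 include 84 distinct DP peaks with a window of 200 kb. No difference was tested, so none could lose a call. The number of distinct DP peaks was 59 and became 34 when only peaks whose nearest start was that of a receptor gene were kept, 39 with a minimum score of 100, and 21 with a window of 10 kb. Under the same 3 alternatives the number of iNKT peaks went from 9 to 3, 4 and 3, and the number of DP peaks overlapping an iNKT peak from 8 to 3, 4 and 3. Receptor genes with an iNKT peak went from 6 to 3 by nearest start and 3 within 10 kb, since the iNKT peaks at Ccr4 and Ccr7 and the peak seen from Cxcr6 lie far from those genes. The share of DP peaks with CAGGTG was 42.4% in 200 bp, 25.4% in 100 bp, 67.8% in 400 bp and 84.7% in the whole peak, and that of iNKT peaks went from 33.3% to 55.6% in 400 bp, within its interval, and 100% in the whole peak. No paired analysis was possible because each cell type had 1 E2A library. The depth of the libraries is unknown, so a receptor gene without an iNKT peak may have binding that was not detectable.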

Other observations

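The ligands of the 8 receptors were searched in the same way. Of 14 ligand genes, 13 were found as protein-coding genes in the annotation, 3 had a DP peak within 100 kb, 2 had an iNKT peak and none had a DP peak over a start, against 65.1%, 16.9% and 11.0% of all protein-coding genes. Cxcl16, the Cxcr6 ligand, had 4 DP peaks, the strongest with a score of 1426 at 47.3 kb from its start. Cxcl9, a Cxcr3 ligand, had 3 DP peaks, the highest 464 at 92.6 kb, and shared with its neighbour Cxcl10 an iNKT peak of 52.7. Ccl21b, a Ccr7 ligand, had 1 DP peak of 81.9 at 43.8 kb. No peak of either cell type was called around Ccl17, Ccl22, Ccl20, Ccl19, Ccl21a, Ccl21c, Ccl25, Cxcl12 or Cxcl13. Ccl17 and Ccl22, Ccl19 and Ccl21a, and Cxcl9 and Cxcl10 share windows, so the ligand genes are not independent of each other. Thymic stromal and dendritic cells are sources of several of these ligands, and a link between the source of a ligand and its peaks was not tested.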
